A study of Mus musculus with 120 samples.

Results

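Mouse macrophages that had received the middle doses of halofuginone, 39 and 156 nM with no added proline, were compared with control macrophages at the time labelled T4. The 4 treated libraries were every T4 library labelled with one of these doses and without proline, 2 per dose, and the 12 controls were every T4 library labelled as control. Together they were 16 of the 120 libraries of the series. All of them came from bone-marrow-derived macrophages of C57BL/6 mice labelled male and 12 weeks old, grown from wild-type marrow, and every group carried a virus that reports transcription factor activity. The series as a whole covered 7 doses of halofuginone from 2.4 to 10000 nM, each with and without 2 mM proline, at T0, T1 and T4, with 12 controls per time. By the series design the small molecules were given 30 minutes before lipopolysaccharide (LPS), whereas the treatment protocol describes a 4-hour dose curve in the presence or absence of LPS. The unit of the time labels, which libraries had LPS, and what vehicle or proline the controls had were not stated in the labels used. No label says that libraries of a group came from separate cultures or animals, so the p-values measure the spread between these libraries, which may be technical.

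Halofuginone occupies the proline site of the enzyme encoded by Eprs, which loads tRNA with glutamate and proline, and extra proline competes with it. Uncharged tRNA activates the kinase GCN2, which phosphorylates the translation factor eIF2, slows protein synthesis and raises ATF4, the transcription factor of the amino acid response. LPS acts on macrophages through Toll-like receptor 4 in successive waves. NF-kB first drives cytokine and chemokine genes such as Tnf, Cxcl2 and Il1b, and secreted interferon-beta then drives antiviral genes such as Ifit1 and Rsad2.

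The treated libraries were shallower and less complex than the controls. Total counts were 61171 and 51511 at 39 nM and 29134 and 37631 at 156 nM, against 54649 to 114061 in the controls (exact two-sided permutation test, p = 0.00879, n = 4 and 12). The precursor of ribosomal RNA, Rn45s, held 64.3, 63.7, 68.4 and 66.4% of counts in the treated libraries and 27.0 to 42.7% in the controls. Outside Rn45s, the treated libraries kept 9195 to 21832 counts and the controls 31289 to 69316. Drawn to 9195 such counts, the treated libraries were expected to show 2526, 2482, 2261 and 2360 genes, and every control showed more, 2755 to 2842. These last 3 measures gave p = 0.0010989 each in the same exact permutation test, the smallest that 4 against 12 libraries allow. Fewer cells and less RNA per cell cannot be told apart in such bulk libraries, and the part of depth and of Rn45s in the results that follow was not tested. Macrophage markers Csf1r, Cd14, Cd68, Emr1 and Itgam had counts in all 16 libraries, whereas Lyz2 had 1 count in all of them together. Lists of markers for lymphocytes (B, T and NK), dendritic cells, erythroid and mast cells and fibroblasts had no member high enough to test, with summed levels between 0 and 121 counts per 1000000 (CPM) in every library. Xist was counted in all 16 libraries and 4 Y-linked genes in none, although the labels give male mice.

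At the middle doses 215 genes rose and 352 fell, out of 1211 tested with edgeR's quasi-likelihood test at an adjusted p under 0.05. That is 46.8% of all tested genes, 17.8% higher and 29.1% lower, and 661 had an unadjusted p under 0.05. Ifit1, Ccl5, most ribosomal protein genes and the lectin gene Lgals3 were among those that fell, and Ifit2, Cd83, Ppp1r15a and the small RNA Rnu6 among those that rose. Folds are relative, and the median gene stood at −0.30 on the log2 scale. Over the same 1211 genes this median was −0.43 with median-of-ratios scaling and −0.91 when genes of low count were kept in the fit. It was −0.24 when library totals without structural RNAs set the scale, over these genes less the structural RNAs. The fit that kept genes of low count called 73 of 10719 genes higher and 611 lower, so the split between rises and falls depends on this choice. The count filter could be passed through the controls alone, which favours falls among genes that entered in that way. It could also be passed through the treated libraries alone, which favours rises among genes that entered so. In 434 of the tested genes 1 of the doses had 3 or fewer counts in all, and 229 of the 352 falls were among these. Fold changes of such genes are given only from a fit with the 4 treated libraries as 1 group, which called 484 of 943 genes (51.3%), 214 higher (22.7%) and 270 lower (28.6%), or as a bound.

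Interferon-stimulated genes split in both directions. Of 60 listed genes 57 were tested, and 11 of them rose (19.3%) and 23 fell (40.4%), beside 17.8 and 29.1% of all tested genes. Their median log2 fold change was −0.44, against −0.30 for all genes. With the treated libraries as 1 group, 12 of 56 rose and 18 fell, beside 22.7 and 28.6% of all genes of that fit. The list median was then −0.23, against −0.14 for all genes. No difference of the list from all tested genes was tested. Ifit1, which binds viral RNA ends, had control levels of 4482 (lowest), 5471 (median) and 6430.3 CPM (highest), against 1382 and 1202 CPM at 39 nM and 805 and 611 CPM at 156 nM. All 4 treated libraries lay far below every control, and the log2 fold change was −2.52 (SE 0.19, adjusted p = 2.05e-14). Rsad2, whose enzyme viperin makes an antiviral nucleotide, had control levels of 13909.9, 16871 and 20286 CPM, and treated levels of 7886, 5209, 5501 and 3196 CPM. The groups again did not overlap (log2 fold change −1.70, SE 0.16, adjusted p = 2.26e-11). Ifi205, a nucleic acid sensor of the Ifi200 family, fell from a control median of 1716 CPM to between 403 and 879.7 CPM, with a log2 fold change of −1.41 (SE 0.21, adjusted p = 1.32e-06). Cmpk2, which lies beside Rsad2 and supplies nucleotides, had a log2 fold change of −1.42 (adjusted p = 2.68e-06), but its first 39 nM library, at 1539 CPM, lay within the control range of 1492 to 2576 CPM. Ifit3, Iigp1 and Trim30a also fell, with log2 fold changes of −0.65, −1.29 and −1.43. Bst2, which tethers budding virus, was at 108 to 294 CPM in the controls and had no count in any treated library, at least 6.07-fold lower when the treated group is set to a floor of 3 counts.

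Ifit2, the neighbour of Ifit1 and a member of its family, moved the opposite way. Its control levels were 2042, 2835 and 3759 CPM, and the treated libraries had 8985 and 6702 CPM at 39 nM and 6575 and 4652 CPM at 156 nM. Every treated library stood above every control (log2 fold change 1.22, SE 0.15, adjusted p = 9.9e-09). Samd9l, an antiviral factor that acts on translation, rose from control levels of 305, 419.7 and 512 CPM to 1288, 1421, 604 and 1316 CPM. The third of these, from 156 nM, was the closest to the controls, and the log2 fold change was 1.49 (SE 0.21, adjusted p = 4.19e-07). Ddx58, which encodes the RNA sensor RIG-I, had control levels of 249, 481 and 868 CPM and treated levels of 1099.6, 1129, 1811 and 1269 CPM. The treated libraries were all higher (log2 fold change 1.389, SE 0.24, adjusted p = 1.25e-05). Eif2ak2, which encodes PKR, another kinase of eIF2, rose by 1.11 on the log2 scale (SE 0.24, adjusted p = 0.00022), with treated levels of 1006 to 1728 CPM overlapping the control range of 334 to 1139 CPM. Cxcl10, a chemokine that attracts T cells, had control levels of 4402 to 6628 CPM and treated levels of 7823, 10309, 7447 and 7002 CPM, without overlap (log2 fold change 0.56, SE 0.13, adjusted p = 0.000694). Its call was lost without the second 39 nM library, at 0.34 (adjusted p = 0.0728). Of the 11 rises, those of Ifit2, Samd9l, Ddx58 and Eif2ak2 were also called without any 1 library, and of the 23 falls 14 were. The rises numbered 7 without the second 156 nM library. With genes of low count kept in the fit, 3 of the 11 rises, Ifit2, Samd9l and Ddx58, and all 23 falls were called. Isg15, Mx1 and Usp18, antiviral genes of the same response, did not pass the test, with log2 fold changes of −0.11, 0.02 and 0.05. With genes of low count kept, however, Isg15 was called lower at −0.73 (adjusted p = 0.0105). In that fit 3 of 58 tested list genes rose and 29 fell, beside 73 and 611 of all 10719 genes. The transcript of interferon-beta itself, Ifnb1, had 2 counts in the 12 controls, 4 at 39 nM and 5 at 156 nM, too few to test. Summed over the list, interferon-stimulated genes had 56213 to 63464 CPM in the controls and 57775, 51398, 44950.1 and 45819 CPM in the treated libraries, so the first treated library lay within the control range.

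**Figure D1:**
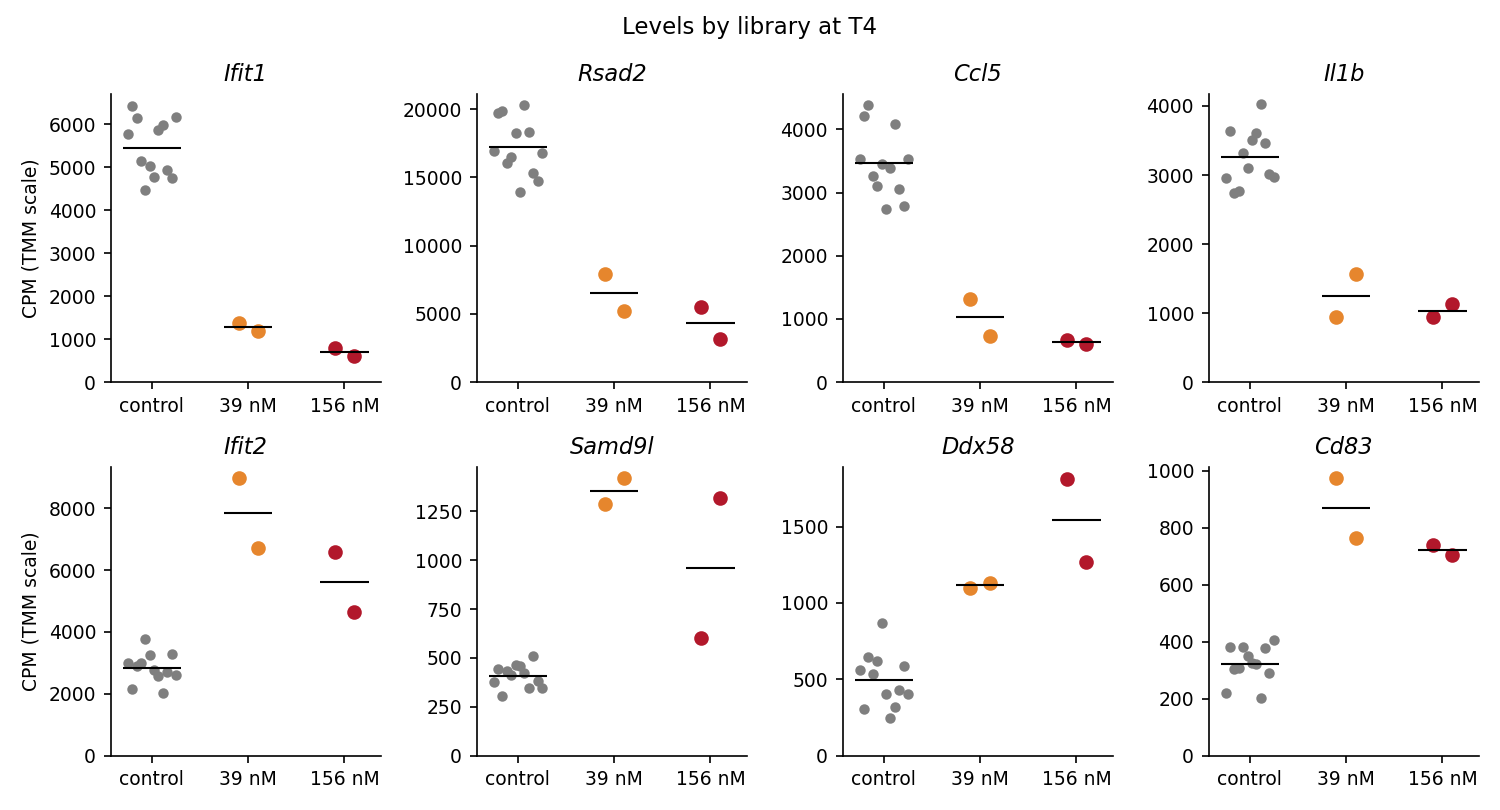
Levels of 8 genes in each of the 16 libraries, in CPM on the TMM scale, for the controls, 39 nM and 156 nM halofuginone at T4; points are libraries and bars are group means. Ifit1, Rsad2, Ccl5 and Il1b lie below every control in all 4 treated libraries, whereas Ifit2, Samd9l, Ddx58 and Cd83 lie above.

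Promoters of 4 interferon-stimulated genes are shown because Ifit1 and Rsad2 fell while Ifit2 and Cxcl10 rose. Each is the 300-base RefSeq window of GRCm38.p6 around the annotated start, read 5′ to 3′ on the gene's strand. Capitals mark letters that match the interferon-stimulated response element (GAAA, any 2 bases, GAAA), the NF-kB site or the AP-1 site (TGACTCA) on either strand, and in Cxcl10 2 overlapping NF-kB matches form 1 stretch.
Ifit1 (chr19:34640639-34640938, + strand): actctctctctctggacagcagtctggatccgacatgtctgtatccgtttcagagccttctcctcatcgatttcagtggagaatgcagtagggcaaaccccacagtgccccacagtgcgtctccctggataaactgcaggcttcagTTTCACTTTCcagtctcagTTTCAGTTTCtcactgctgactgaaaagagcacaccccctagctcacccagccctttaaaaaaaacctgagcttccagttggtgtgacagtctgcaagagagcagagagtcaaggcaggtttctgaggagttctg
Rsad2 (chr12:26456403-26456702, - strand): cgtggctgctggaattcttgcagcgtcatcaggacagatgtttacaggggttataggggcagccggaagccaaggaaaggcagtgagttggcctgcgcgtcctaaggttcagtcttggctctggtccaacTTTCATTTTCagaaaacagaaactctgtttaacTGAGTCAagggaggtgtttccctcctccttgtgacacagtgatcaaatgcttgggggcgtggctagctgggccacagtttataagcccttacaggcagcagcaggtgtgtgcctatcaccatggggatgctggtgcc
Ifit2 (chr19:34550444-34550743, + strand): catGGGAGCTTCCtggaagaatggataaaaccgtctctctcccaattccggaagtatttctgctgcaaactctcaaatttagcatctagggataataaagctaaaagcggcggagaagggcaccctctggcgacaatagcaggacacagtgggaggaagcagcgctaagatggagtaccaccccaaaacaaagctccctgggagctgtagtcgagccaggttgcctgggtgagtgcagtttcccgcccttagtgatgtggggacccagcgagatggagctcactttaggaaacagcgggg
Cxcl10 (chr5:92348840-92349139, - strand): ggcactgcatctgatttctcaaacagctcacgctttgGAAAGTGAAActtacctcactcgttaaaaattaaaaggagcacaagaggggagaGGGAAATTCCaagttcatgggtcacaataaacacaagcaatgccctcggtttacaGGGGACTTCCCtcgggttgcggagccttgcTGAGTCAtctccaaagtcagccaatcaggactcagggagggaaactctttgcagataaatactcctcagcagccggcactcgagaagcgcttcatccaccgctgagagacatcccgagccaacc
The Ifit1 window holds 2 matches to the response element, the Rsad2 window 1 beside an AP-1 match, and the Cxcl10 window 1 beside NF-kB and AP-1 matches. The Ifit2 window shown, 1 of 2 in the table, holds no match to the response element and 1 NF-kB match, and the other Ifit2 window matches none of the motifs. Among promoters of tested interferon-stimulated genes 25 of 56 held the response element (44.6%), against 3.44% of all 32851 promoters in the table and 8.37% of those of tested genes. It was in 6 of the 12 promoters of members that rose and in 12 of the 24 promoters of members that fell. The NF-kB site was in 8.46% of all promoters, 13.7% of those of tested genes and 17.9% of those of tested interferon-stimulated genes. For the AP-1 site these were 5.2, 4.84 and 16.1%. Of the 12 promoters of members that rose 4 held the NF-kB site and 3 the AP-1 site, and of the 24 of members that fell 2 and 3. A match is a description of letters only.

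Inflammatory genes, chemokines and interleukins among them, changed in both directions, as all tested genes did. Of 55 listed genes 38 were tested, and 8 rose (21.1%) and 12 fell (31.6%), near the 17.8 and 29.1% of all tested genes, with a median log2 fold change of −0.03. Ccl5, a chemokine for T cells and monocytes, had control levels of 2745, 3428 and 4380.0 CPM and treated levels of 1319.5, 729, 671 and 611 CPM. The groups did not overlap (log2 fold change −2.09, SE 0.20, adjusted p = 7.8e-11). Ccl4 had control levels of 2598, 3125 and 4328 CPM and treated levels of 1602, 1529.9, 738 and 611 CPM. Its libraries were lowest at 156 nM and below every control at both doses (log2 fold change −1.65, SE 0.19, adjusted p = 4.84e-09). The neighbouring gene Ccl3 fell by 1.41 on the log2 scale (adjusted p = 2.27e-06). Il1b, which encodes the fever cytokine interleukin-1 beta, had control levels of 2746, 3209.8 and 4026 CPM and treated levels of 942, 1566, 939 and 1128 CPM. All 4 were below every control (log2 fold change −1.52, SE 0.18, adjusted p = 9.9e-09). Irg1, whose enzyme makes itaconate, fell by 1.634 on the log2 scale (SE 0.21, adjusted p = 3.42e-08). Nfkbia, the inhibitor of NF-kB, fell by 0.77 on the log2 scale (SE 0.17, adjusted p = 0.000374), and Saa3, Il1rn and Il6 fell with log2 fold changes of −1.33, −1.23 and −1.81, all 4 with overlap between groups.

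The inflammatory genes that rose included Cd83, a surface protein of activated antigen-presenting cells. Its control levels were 201, 324 and 404 CPM and its treated levels 974, 765, 738 and 705 CPM. Every treated library was higher than every control (log2 fold change 1.29, SE 0.24, adjusted p = 3.79e-05). Il1a, the interleukin-1 gene next to Il1b, rose from control levels of 318, 508 and 789.8 CPM to 1068, 2258, 939 and 893 CPM, in the direction opposite to Il1b. The groups did not overlap (log2 fold change 1.27, SE 0.24, adjusted p = 4.03e-05). Cxcl2, a neutrophil chemokine, had control levels of 704, 915 and 1634 CPM and treated levels of 2796, 2477, 1610.2 and 1222 CPM. The 39 nM libraries lay above all controls and the 156 nM libraries within the control range (log2 fold change 0.94, SE 0.20, adjusted p = 0.00026). These 3 rises were also called without any 1 library, and 11 of the 12 falls were. The rises numbered 5 without the second 156 nM library. Tnf, the early cytokine, had control levels of 238, 353 and 518 CPM and treated levels of 754, 401, 805 and 469.9 CPM, with 1 library of each dose inside the control range. Its log2 fold change was 0.73 (SE 0.27, adjusted p = 0.0259), and the call was lost without the first 39 nM library (0.34, adjusted p = 0.446), without the first (0.46, adjusted p = 0.28) or the second 156 nM library (0.78, adjusted p = 0.0629), and with median-of-ratios scaling (0.60). Ptgs2 and Tnfaip3, the cyclooxygenase and an NF-kB feedback inhibitor, rose by 0.72 and 0.90 on the log2 scale, and without the second 156 nM library these were 0.52 (adjusted p = 0.0772) and 0.59 (adjusted p = 0.11). With genes of low count kept in the fit, none of the 8 inflammatory rises and all 12 falls were called by edgeR. Of all 10719 genes then tested, 73 were called higher and 611 lower. In that fit Cxcl2 stood at 0.33, Cd83 at 0.66 and Il1a at 0.66 on the log2 scale.

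The amino acid response could be followed through few genes at this depth. Eprs, the target of halofuginone, had 55 counts in the 12 controls, 4 at 39 nM and 3 at 156 nM, and Atf4 had 71, 7 and 4, so neither was tested. Atf4 levels were 62.8 and 182 CPM at 39 nM and 268 and 0 CPM at 156 nM, around a control range of 23.7 to 144 CPM. The ATF4 targets Ddit3 (14, 0 and 0 counts), Asns (10, 1 and 0) and Trib3 (1, 0 and 0) were rare in every group, and Chac1 had no count. Of 42 listed ATF4 targets 6 were tested, and 2 rose (33.3%) and 1 fell (16.7%), beside 17.8 and 29.1% of all tested genes. Ppp1r15a encodes GADD34, a regulatory subunit of a phosphatase of eIF2. Its control levels were 0, 49.8 and 166 CPM and its treated levels 314, 583, 604 and 517 CPM. All 4 treated libraries stood above every control (log2 fold change 2.66, SE 0.47, adjusted p = 1.45e-05), also without any 1 library and with genes of low count kept in the fit. Nupr1, a stress-induced chromatin protein, had treated levels of 408, 291, 1141 and 47 CPM and a log2 fold change of 1.26 (SE 0.43, adjusted p = 0.0168). This rested on the first 156 nM library, without which it was −0.54 (adjusted p = 0.602). Cebpb, a transcription factor of both the amino acid and the inflammatory response, fell from control levels of 231, 260.2 and 406 CPM to 62.8, 72.9, 268 and 188 CPM (log2 fold change −1.19, SE 0.39, adjusted p = 0.0128). The 39 nM libraries were the lowest and the first 156 nM library lay within the control range. The lists of cytosolic tRNA synthetases, proline metabolism and cholesterol synthesis had no member high enough to test.

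Ribosomal protein mRNAs were the most uniform group to fall. Of 47 tested large-subunit genes 36 fell (76.6%) and 1 rose (2.13%), and of 32 tested small-subunit genes 31 fell (96.9%) and none rose, against 29.1% lower among all genes. Their median log2 fold changes were −1.96 and −2.22 in the main fit, and −1.60 and −1.88 with the treated libraries as 1 group. With median-of-ratios scaling 40 large-subunit and 31 small-subunit genes fell, and with library totals as the scale 36 and 32. Rpl41, a very short mRNA, had control levels of 803, 1092 and 1562 CPM and treated levels of 283, 146, 268 and 47 CPM. The groups did not overlap (log2 fold change −2.63, SE 0.32, adjusted p = 1.26e-08). Rps29 had control levels of 755, 1002 and 1567 CPM and treated levels of 314, 109, 268 and 94 CPM, again without overlap (log2 fold change −2.38, SE 0.33, adjusted p = 2.07e-07). Rpl17 had 708 counts in the controls, 6 at 39 nM and 3 at 156 nM, and its log2 fold change with the treated libraries as 1 group was −2.97 (adjusted p = 2.65e-08). Summed over the large subunit, the list had 15283 to 22367 CPM in the controls and 8137, 7650 (39 nM), 6709 and 5028 CPM (156 nM). Rpl4, which has a longer mRNA, was the exception, with control levels of 273, 400.0 and 545 CPM, treated levels of 754, 838, 872 and 611 CPM, and a log2 fold change of 0.90 (SE 0.24, adjusted p = 0.00259). That call was lost without the first 156 nM library, at 0.70 (adjusted p = 0.0588). Tpt1, whose mRNA has a 5′ terminal pyrimidine tract like those of ribosomal proteins, rose from control levels of 2619.9, 3146 and 5291 CPM to 10807, 8159, 6575 and 7284 CPM. All treated libraries were higher (log2 fold change 1.28, SE 0.15, adjusted p = 6.6e-09). Eef1a1, the main elongation factor, had a log2 fold change of 0.06 and did not pass the test. Many ribosomal protein genes have near-identical processed copies in the genome, so their counts are uncertain where reads were shared.

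Genes of macrophage identity, the lysosome, antigen presentation and the cytoskeleton fell more often than they rose, as did all tested genes (29.1% lower and 17.8% higher), and no difference from that background was tested. Of 29 tested macrophage genes 14 fell (48.3%) and 3 rose (10.3%), or 1 without the first 39 nM or the first 156 nM library. Cd14, the co-receptor for LPS, had control levels of 549, 637 and 973 CPM and treated levels of 188, 109, 268 and 329 CPM, without overlap (log2 fold change −1.73, SE 0.31, adjusted p = 1.7e-05). Lgals3, a galactose-binding lectin, had control levels of 1906, 2329 and 3034 CPM and treated levels of 691, 874, 671 and 564 CPM (log2 fold change −1.79, SE 0.21, adjusted p = 6.43e-09). Csf1r, the receptor for macrophage colony-stimulating factor, had a log2 fold change of 0.06 (SE 0.28, adjusted p = 0.874), with treated levels of 235 to 939 CPM around a control median of 523 CPM. Of 22 tested lysosomal genes 9 fell (40.9%) and 2 rose (9.09%). The protease gene Ctsb fell from control levels of 1335, 1845 and 2226 CPM to 754, 656, 872 and 705 CPM (log2 fold change −1.28, SE 0.20, adjusted p = 2.59e-06). Grn, which encodes progranulin, went the other way, from 927, 1206 and 1697 CPM to 3173, 3388, 2079.8 and 4464 CPM. Neither gene's groups overlapped, and the log2 fold change of Grn was 1.40 (SE 0.17, adjusted p = 1.1e-08). The protease gene Ctsc rose as well, by 1.00 on the log2 scale (SE 0.19, adjusted p = 4.47e-05).

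Of 12 tested antigen presentation genes 6 fell (50%) and 2 rose (16.7%), beside 29.1 and 17.8% of all tested genes, the rises numbering 0 without the first 39 nM library and 1 without the first 156 nM library or any of 8 controls. B2m, the light chain of MHC class I, had control levels of 1517, 1973 and 2847 CPM and treated levels of 566, 765, 268 and 517 CPM, without overlap (log2 fold change −1.99, SE 0.23, adjusted p = 4.84e-09). Of 28 tested actin cytoskeleton genes 12 fell (42.9%) and 5 rose (17.9%, near the 17.8% of all genes), or 2 to 3 without any 1 of the treated libraries. Tmsb4x, which sequesters actin monomers, had control levels of 1657, 2397 and 3029.8 CPM and treated levels of 566, 546, 671 and 141 CPM. All were below the controls, lowest in the second 156 nM library (log2 fold change −2.39, SE 0.25, adjusted p = 5.89e-10). Of 15 tested respiratory chain genes 10 fell (66.7%) and none rose (16 fell without the first 39 nM library, since more were then tested). With the treated libraries as 1 group, 8 were tested and 4 fell, beside 28.6% lower among all genes of that fit. Of the 10 falls, 4 were also called without any 1 library. Atp5l, Ndufa1 and Ndufa2 had no treated count, at least 4.89-, 3.85- and 3.15-fold lower at the floor of 3 counts. Cdkn1a, which encodes the cell cycle inhibitor p21, fell by 2.25 on the log2 scale (SE 0.28, adjusted p = 2.41e-08), and the cyclin gene Ccnd2 fell by 2.30 (SE 0.25, adjusted p = 1.59e-09). Ftl1, the ferritin light chain, fell by 1.51 on the log2 scale (SE 0.21, adjusted p = 2.87e-07), while the heavy chain Fth1 stood at 0.21 (adjusted p = 0.199). None of the 5 tested endoplasmic reticulum chaperones passed edgeR's test, although Hsp90b1 was called lower with median-of-ratios scaling (−1.17, adjusted p = 0.0275) and by DESeq2 (adjusted p = 0.0379).

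**Figure D2:**
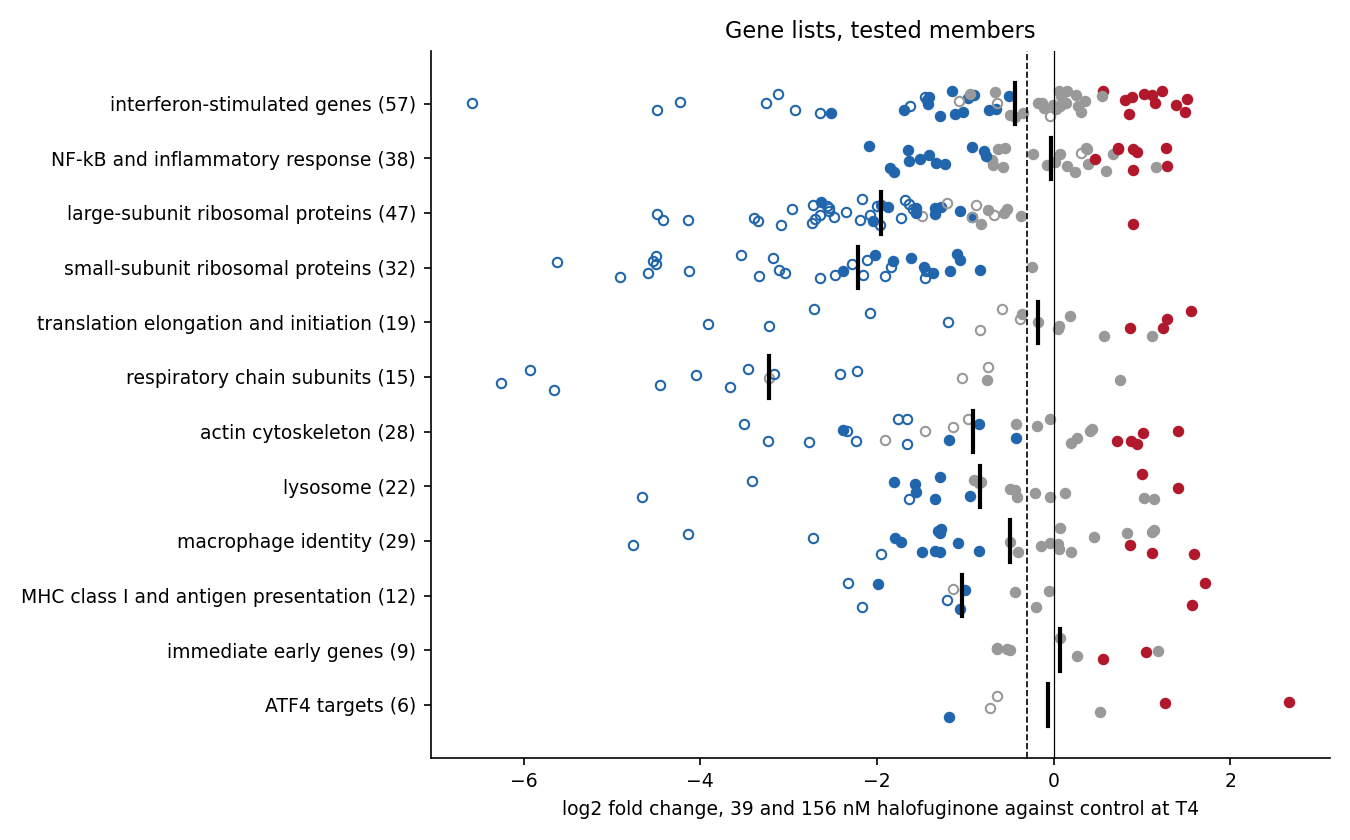
Log2 fold changes of middle-dose halofuginone against control at T4 for the tested genes of 12 lists; red points are called higher, blue lower and grey not called, open circles mark genes with 3 or fewer counts at 39 or 156 nM, bars are list medians and the dashed line is the median of all tested genes. The ribosomal protein lists lie almost wholly to the left, and the inflammatory and interferon lists spread to both sides of the dashed line.

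The largest rises were of structural RNAs and of mRNAs. Rnu6, the U6 spliceosomal RNA, had control levels of 0, 21.6 and 56 CPM and treated levels of 659.8, 1529.9, 2147 and 846 CPM (log2 fold change 5.78, SE 0.36, adjusted p = 1.17e-16). With so few control counts, Rnu6 passed the count filter only through the treated libraries. Rn4.5s, a small rodent RNA, rose by 4.18 on the log2 scale (SE 0.38, adjusted p = 9.77e-12). Malat1, a nuclear noncoding RNA, had control levels of 805, 1222 and 1976 CPM and treated levels of 4587, 2696, 3958 and 6250.2 CPM, without overlap (log2 fold change 1.74, SE 0.19, adjusted p = 7.67e-10). The largest called rises among mRNAs at or above the median level included Macf1, a cytoskeletal linker, with control levels of 101, 215 and 559 CPM and treated levels of 1162, 1093, 939 and 705 CPM (log2 fold change 1.88, SE 0.32, adjusted p = 9.17e-06). Golga3, which encodes a Golgi scaffold, rose by 1.84 on the log2 scale. Abi1, Ranbp2 and Rab1, which act in actin assembly, at the nuclear pore and in vesicle traffic, rose by 1.80, 1.77 and 1.75. In all of these the treated libraries stood above every control.

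Ranked by the mean of the 39 and 156 nM effects, the 10 largest falls at or above the median level all had 0 counts in the 156 nM libraries. They included Rps21 and Rps28 of the small ribosomal subunit, with Shfm1, S100a6, Fcer1g, Zbtb7a, Hexa and H2afy. A dose with 0 counts pulls that mean far down, so the ranking itself favours such genes and is no measure of the size of their fall. Fcer1g, the shared signalling chain of Fc receptors, had 487 counts in the controls and 12 at 39 nM, with a log2 fold change of −2.05 when the treated libraries form 1 group. Rps21 had 453 and 3 counts, and S100a6, a calcium-binding protein gene, 279 and 2. Hexa, a lysosomal hexosaminidase subunit, had 231 and 3. The treated libraries were shallower than the controls, so a count of 0 does not show that these transcripts were absent.

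Fold change and the exon length of genes moved together. Exon length is the union of a gene's annotated exons over all its transcripts, so it can exceed the length of the mRNA present. Over 1164 tested protein-coding genes Spearman's rho between log2 fold change and exon bases per gene was 0.405, and 0.351 over the 1085 that are not ribosomal protein genes. Genes share these 16 libraries and are not independent, so this is a description. The median exon length was 6610 bases in genes that rose, 2774 in genes that fell and 5289 in the rest. Split into 5 equal groups by length, 58.4% of the shortest genes fell and 6.01% rose, while 8.15% of the longest fell and 29.6% rose. The median log2 fold change went from −1.54 through −0.75, −0.29 and 0.03 to 0.40 from the shortest to the longest group. The part of length in the gene groups above was not tested.

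**Figure D3:**
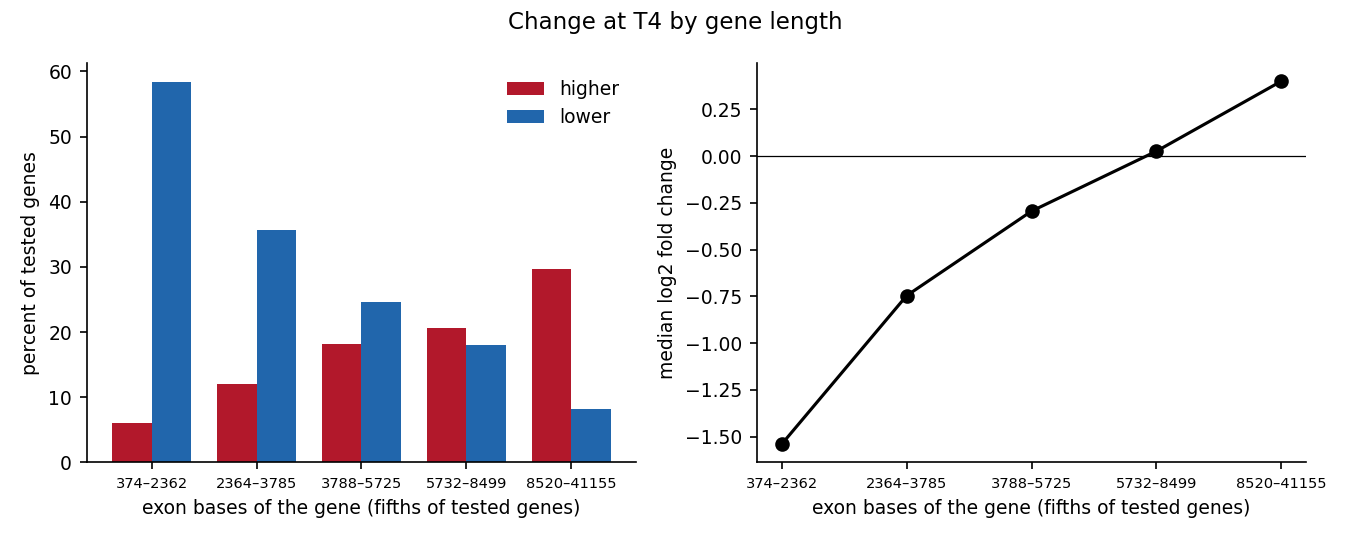
Tested protein-coding genes at T4 in 5 equal groups of exon length, from shortest to longest: percent called higher or lower at the middle doses against control, and the median log2 fold change of each group. The percent lower drops from 58.4 to 8.15 and the percent higher climbs from 6.01 to 29.6.

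Each dose alone gave smaller counts with 2 treated libraries. Against the same 12 controls, 39 nM called 392 genes (32.4%), 175 higher (14.5%) and 217 lower (17.9%), or 133 and 281 with median-of-ratios scaling. The 156 nM dose called 308 (25.4%), 111 higher (9.17%) and 197 lower (16.3%), or 186 and 160 when library totals without structural RNAs set the scale. Without the second 156 nM library, its count was 133, and without the first or the second 39 nM library the 39 nM count was 177 or 191. The test of 156 against 39 nM called no gene (0%), with 125 at an unadjusted p under 0.05 and 0 by DESeq2. Ccl4 had log2 fold changes of −1.03 at 39 nM and −2.26 at 156 nM, a difference of −1.23 (SE 0.35, adjusted p = 0.309). Ifit1 had −2.07 and −2.97, a difference of −0.89 (SE 0.35, adjusted p = 0.338). Cxcl2 had 1.40 and 0.49, a difference of −0.92 (SE 0.36, adjusted p = 0.339), so these differences between the doses did not pass the test.

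Levels along the dose series are given for 3 genes and Rn45s. Ifit1 had 5702 and 7379 CPM at 9.7 nM, 1202 and 1382 CPM at 39 nM, 805 and 611 CPM at 156 nM, and 606 to 1147 CPM from 625 to 10000 nM. Its 39 nM libraries lay closer to those of the higher doses than to those of 9.7 nM, and its 156 nM libraries lay within the range of the higher doses. Cxcl2 had 5165 and 7758 CPM at 9.7 nM, 2477 and 2796 CPM at 39 nM, 1222 and 1610.2 CPM at 156 nM, and 770.1 to 1319 CPM from 625 to 10000 nM. Tnf had 1862 and 2150 CPM at 9.7 nM, above its 401 and 754 CPM at 39 nM. The share of Rn45s was 39.9 and 46.2% at 9.7 nM, near the controls, 63.7 to 68.4% at the middle doses, and 61.5 to 67.6% from 625 nM upward. These levels are set side by side without a test.

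**Figure D4:**
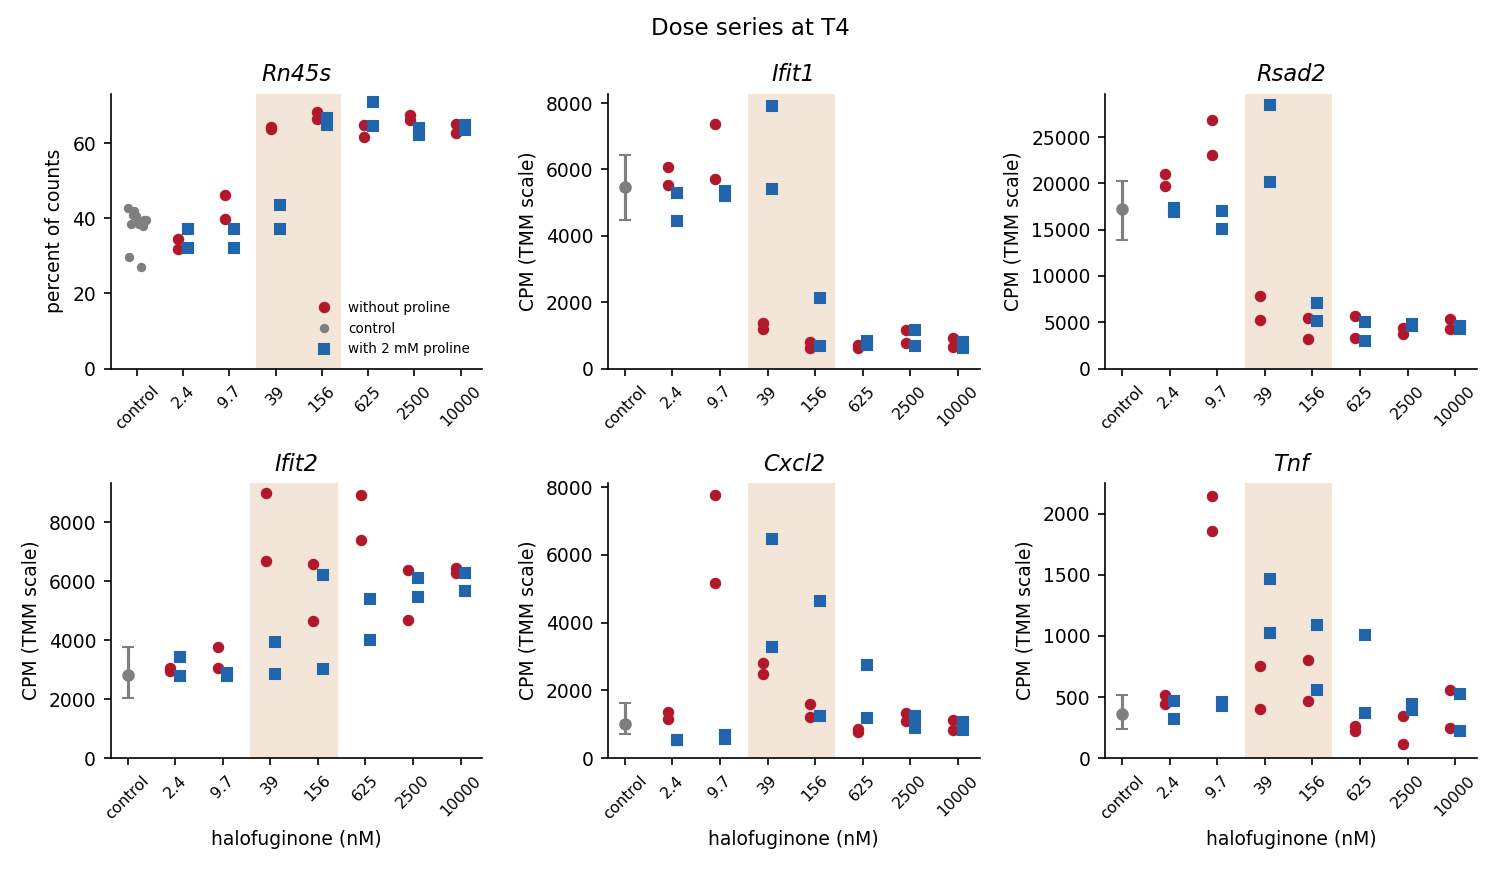
Share of Rn45s in counts and levels of Ifit1, Rsad2, Ifit2, Cxcl2 and Tnf (CPM on the TMM scale) at T4 by halofuginone dose in nM, at evenly spaced positions. Red circles are libraries without proline and blue squares those with 2 mM proline. For genes other than Rn45s, the grey point with its bar is the control mean with the lowest and highest control. In the Rn45s panel grey points are the control libraries. The shaded band holds 39 and 156 nM, where Ifit1 without proline lies at 611 to 1382 CPM while the 39 nM libraries with proline lie at 5412 and 7923 CPM.

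Few genes separated the middle from the higher doses at this depth. Tested directly against 625, 2500 and 10000 nM (6 libraries), 8 of 1162 genes differed (0.688%), 7 higher (0.602%) and 1 lower (0.0861%) at the middle doses. Cxcl2 was higher by 1.03 on the log2 scale (SE 0.25, adjusted p = 0.0422), and Ifi203, a nucleic acid sensor related to Ifi205, by 2.14 (SE 0.39, adjusted p = 0.00101). The others higher were Gbp7, Kctd12, Rps10, Rpl39 and Eef1b2, and Fut8 was lower. The count went from 0 without the second 156 nM library to 22 without the first 10000 nM library, and was 3 with median-of-ratios scaling, of which 2 were higher. Ifit1 and Ifit2 differed by 0.31 (adjusted p = 0.621) and 0.05 on the log2 scale and did not pass the test.

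Proline separated the libraries at 39 nM. Over both doses, 53 of 1179 genes differed between libraries without and with 2 mM proline (4.5%), 15 higher (1.27%) and 38 lower (3.22%) without it, or 13 and 64 with median-of-ratios scaling. Ifit1 had 5412 and 7923 CPM at 39 nM with proline, within or above the control range, against 1382 and 1202 CPM without. At 156 nM it had 691 and 2113 CPM with proline, against 805 and 611 CPM without. The log2 difference, without less with proline, was −2.32 at 39 nM (SE 0.31, adjusted p = 2.03e-06) and −0.94 at 156 nM (adjusted p = 0.425). Ifit2 went the other way at 39 nM, with a log2 difference of 1.248 (adjusted p = 0.00175), and Ccl5 and Il1b stood at −2.05 and −1.48. At 39 nM alone 187 genes differed (15.9%), 70 higher (5.94%) and 117 lower (9.92%), and at 156 nM alone 1 did (0.0848%), Ifi203, with a log2 difference of 3.11 (SE 0.63, adjusted p = 0.0111) and 128 genes at an unadjusted p under 0.05. The difference of the differences was itself called in 23 genes (1.95%), 9 higher (0.763%) and 14 lower (1.19%). Among them were Rsad2, at −1.36 on the log2 scale (SE 0.38, adjusted p = 0.0451), and Rn45s, at 1.33 (SE 0.35, adjusted p = 0.0352), whereas Ifit1, at −1.38 (adjusted p = 0.158), did not pass. The Rn45s share was 37.1 and 43.5% at 39 nM with proline and 65.0 and 66.7% at 156 nM with proline. The count for both doses fell to 18 without the first 156 nM library with proline, 24 without the second 39 nM library with proline and 32 without the second 39 nM library without it.

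With proline, 39 nM halofuginone still differed from control in 61 of 1179 genes (5.17%), 41 higher (3.48%) and 20 lower (1.7%). The neutrophil chemokines Cxcl1 and Cxcl2 were higher by 3.45 and 2.23 on the log2 scale. Cxcl2 had 3286 and 6482 CPM in these libraries and Tnf 1023 and 1464 CPM, above all 12 controls of either gene. At 156 nM with proline 271 genes differed from control (23%), 100 higher (8.48%) and 171 lower (14.5%). At 39 nM without proline the levels were lower, 2796 and 2477 CPM for Cxcl2 and 754 and 401 CPM for Tnf, and the difference for Cxcl2 did not pass the test at this dose (log2 difference −0.84, adjusted p = 0.112), whereas over both doses it did (−0.94, adjusted p = 0.0447).

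At T0 the treated libraries stood above the controls in Il1b, Cxcl2 and Ccl4, of which Il1b and Ccl4 were lower at T4, but not in every inflammatory gene. The effect at T0 alone was not tested. Il1b had 0 to 98.7 CPM in the 12 T0 controls, 689 and 825 CPM at 39 nM and 487 and 1249.9 CPM at 156 nM. Every treated T0 library was above every T0 control, the opposite of T4. Cxcl2 had 0 to 138 CPM in the T0 controls, 2576 and 2766 CPM at 39 nM and 4106 and 5927 CPM at 156 nM. Ccl5, by contrast, had 0 to 59.4 CPM in the T0 controls, 30.0 and 121 CPM at 39 nM and no count at 156 nM. Ccl4 had 0 to 96.3 CPM in the T0 controls and 179.7 to 766 CPM in the treated libraries. Ifit1 was at 0 to 139 CPM in the T0 controls and 0 to 40.3 CPM in the treated libraries. The effect at T4 less that at T0 was tested in 1 fit of 32 libraries and differed in 207 of 1473 genes (14.1%), 9 higher (0.611%) and 198 lower (13.4%), or 24 and 142 with median-of-ratios scaling and 35 and 113 with library totals. The median of all genes was −0.56 on this contrast. Of 38 tested inflammatory genes 23 were lower and none higher, with a median of −2.50, beside 13.4% lower among all genes. Il1b stood at −6.64, Cxcl2 at −5.67, Ccl4 at −5.15 and Tnf at −3.82 on the log2 scale. Of 57 tested interferon-stimulated genes 3 were lower and none higher, with a median of −0.04. T0 controls had almost none of several of these inflammatory transcripts, so the size of such a difference depends on few counts. Interferon-stimulated genes were low at T0 too, with a summed control mean of 4156 CPM against 60577 CPM at T4. At T0 Ifit1 had 30 counts in the controls and 1 at each dose, so differences in such genes could be seen only poorly.

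**Figure D5:**
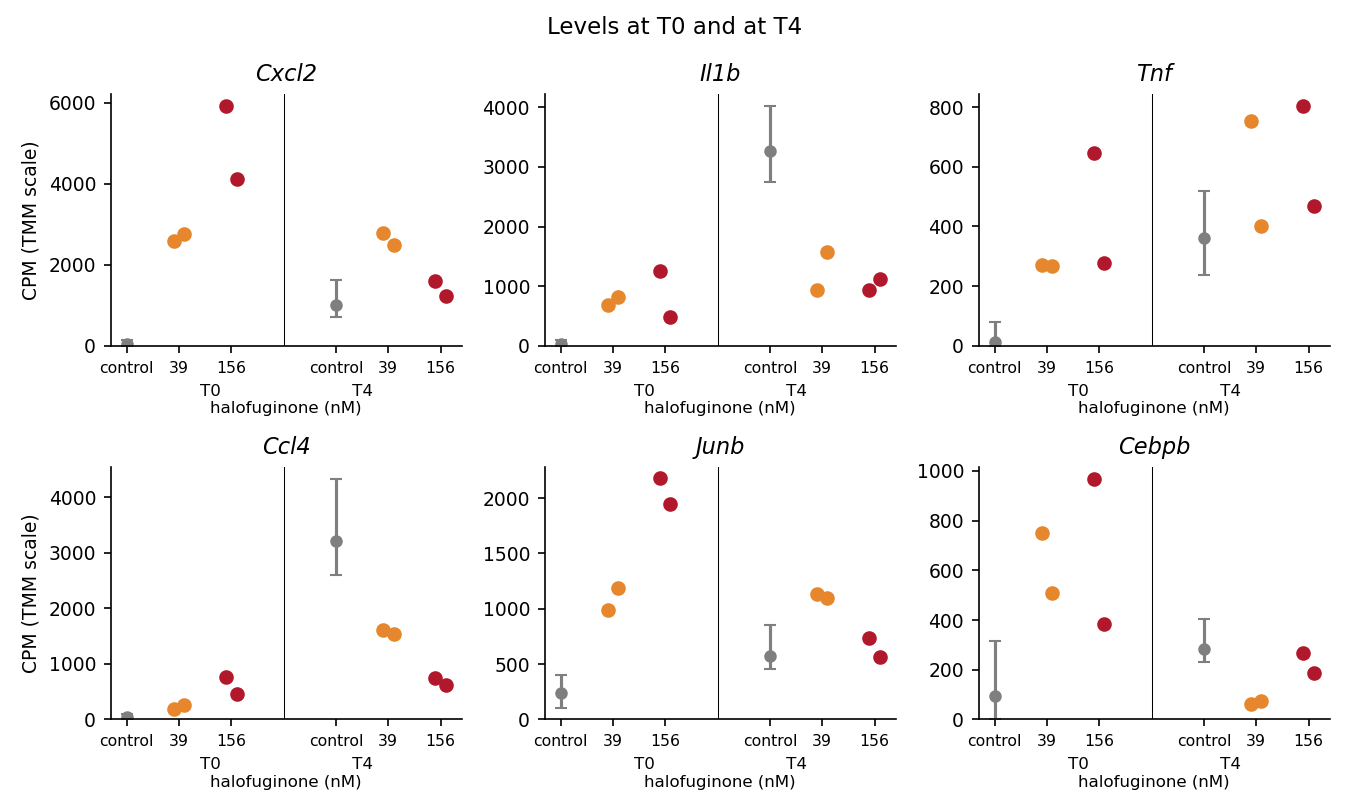
Levels of Cxcl2, Il1b, Tnf, Ccl4, Junb and Cebpb (CPM on the TMM scale) at T0 and T4; the grey marker is the control mean with a bar from the lowest to the highest of 12 controls, and points are the treated libraries at 39 and 156 nM without proline. The treated libraries lie above the control range of every gene at T0, and below it for Il1b and Ccl4 at T4.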

How the data were processed

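RNA was profiled by 3′ digital gene expression with a modified SCRB-Seq protocol, per the labels' protocols. The authors deposited 1 table of raw counts for 23481 gene symbols in 120 libraries, per the labels, and BWA and the mm10 genome are named in the submitters' processing notes. Their versions, the counting program, whether it used strand and whether it collapsed molecular identifiers are not stated there, so a count may be a repeated read of 1 molecule. Totals in the 16 libraries ran from 29134 to 114061 counts. A 3′ method reads tags from the transcript end and not from its whole length, so levels were not divided by length. They are not compared between genes.

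Counts of the 4 treated and 12 control libraries were fitted in R 4.3.3 with edgeR 4.0.16 (TMM scaling, filterByExpr with a minimum count of 10, quasi-likelihood F test, 1 coefficient per group). The middle-dose contrast is the mean of the 39 and 156 nM groups less control. P-values are two-sided and adjusted by Benjamini-Hochberg over all tested genes, with a threshold of 0.05. The SE was taken from the test itself, as the size of the fold on the log2 scale over the root of F, and is not a fitted error. Levels are CPM on the TMM scale of this fit, set so that the controls average their own totals. All 120 libraries were put on that scale, on which the structural RNAs of treated libraries exceed 1000000. Replicate libraries were compared in 68 pairs, and 0 were identical. Fits of 22, 20 and 32 libraries tested the higher doses, proline and T0. Library measures were compared by exact permutation, 7 in all, and adjusted over them. Exon lengths are from GENCODE M21 (GRCm38), and promoter windows from RefSeq (GRCm38.p6). The fit was also run on simulated counts. It called 59.1% of genes changed 2-fold, 99% of those changed 4-fold and 1.07% of those left unchanged. All simulated libraries shared 1 base profile, without the group differences in Rn45s share and complexity seen here. This run therefore cannot show how well the scaling copes with those differences.

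Genes were named by a rule: the 10 largest called rises and falls at or above the median level with all 4 treated libraries on 1 side of the control mean, without predicted genes and pseudogenes, up to 3 members of each of 29 gene lists with the smallest adjusted p, a set always reported, and the 3 largest called rises and falls of each other comparison. The rule names 104 genes, and 50 other list members were added after their values were seen. Some of the genes named by it are not reported here. Groups, lists and the rule were chosen with earlier results of these data known. Other settings tried were DESeq2 1.42.0, scaling by median of ratios, keeping genes of low count, a block for replicate number, no library under 30000 counts, no structural RNAs (6 of them), all T4 libraries without proline in 1 fit, and leaving out each library. Added after seeing the data were library totals as the scale, controls 1 and 2 only, the treated libraries as 1 group, and each dose alone in the proline comparison.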

Additional observations from a re-analysis of the deposited data

Results flagged for a closer look

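The change from control at the middle doses was tested at T4 less that at T0 in 1 fit of 32 libraries. Of all 1473 tested genes 207 differed (14.1%), 13.4% lower and 0.611% higher, at an adjusted p under 0.05 (edgeR quasi-likelihood). Among them were 30 named genes, and the naming rule itself drew on the calls of this contrast, so their number is no separate result. The 12 T0 controls together held few counts of several of them, 13 of Il1b, 8 of Tnf and 5 of Cd40. All values are differences of log2 fold changes, and the median of all tested genes was −0.56. Inflammatory genes held the widest gaps, with Il1b at −6.64, Cxcl2 at −5.67, Il1rn at −5.58, Ccl4 at −5.15, Ccl3 at −5.09, Cd40 at −4.10, Nfkbia at −3.97, Tnf at −3.82, Tnfaip3 at −3.06, Tnfaip2 at −2.98, Ptgs2 at −2.74 and Cd83 at −2.16. In Il1b, Ccl4, Ccl3, Il1rn, Cd40, Nfkbia and Tnfaip2 the change at T4 was a fall, whereas Cxcl2, Tnf, Tnfaip3, Ptgs2 and Cd83 rose at T4 with the larger effect at T0. The transcription regulators Cebpb (−4.21), Kdm6b (−2.76) and Junb (−2.35) were lower on this contrast, as were the cell cycle inhibitor Cdkn1a (−2.77), the lectin gene Lgals3 (−2.15), the LPS co-receptor Cd14 (−1.92) and the stress genes Hsp90aa1 (−1.92) and Sqstm1 (−1.27). Rps29 stood at −1.62, Rpl41 at −1.51 and B2m at −1.46. Nearer to the median of all genes were Ctsb at −0.87, Ftl1 at −0.81 and Actb at −0.60. The effect at T4 was the higher one for Rnu6 (2.52), Nrp1 (1.54), Grn (0.81) and Rn45s (0.74).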

How the results depend on the processing

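The middle-dose count of 567 lay between 526 and 684 under median-of-ratios scaling, no filter, DESeq2, no libraries under 30000 counts, no structural RNAs, library totals as the scale, and all T4 libraries without proline, and was 484 with the treated libraries as 1 group. With replicate number as a block, which leaves 2 controls, the counts were 157 (middle dose), 77 (39 nM), 91 (156 nM), 2 (against higher doses), 18 (proline) and 35 (T4 less T0). With controls 1 and 2 only and no block they were 214, 125, 131, 2, 20 and 34. Deviations of same-numbered libraries correlated at −0.05 to 0.02. With 2 libraries per dose and few counts per gene, this cannot show whether the numbers pair libraries. The test of 156 against 39 nM called 1 gene with no filter and 1 without libraries under 30000 counts. Against higher doses the 8 calls became 3 (median-of-ratios), 2 (no filter), 4 (no libraries under 30000 counts), 3 (no structural RNAs) and 1 (library totals). The 53 proline calls became 83 (DESeq2), 13 (no libraries under 30000 counts), 187 (39 nM alone) and 1 (156 nM alone). Leaving out 1 library gave 441 to 580 (middle dose), 177 to 433 (39 nM), 133 to 362 (156 nM), 0 to 1 (156 against 39 nM), 0 to 22 (against higher doses), 18 to 74 (proline) and 188 to 240 (T4 less T0). Treated less control libraries differed, on leaving out 1, by −36191 to −25512 total counts, −33011 to −28799 counts without Rn45s, −2729 to −2264 genes, −441.8 to −353 expected genes, 26.8 to 28.4 percentage points of Rn45s, and Lars2 by 1.45 to 1.81 points, or 7.37 to 8.29 without Rn45s. With no filter Ccl9 turned to −0.15, Cxcl10 to −0.063, Hspa8 to −0.067 and Junb to −0.068 on the log2 scale, none of them called, and Nupr1 turned to −0.54 without the first 156 nM library, the only 1 of the 16 under 30000 counts (range −0.54 to 1.66 on leaving out 1 library). Of 3710 alternative values of 146 named genes, 3450 kept direction and side of the threshold and 218 lost the call. Depth limits what could be tested, 1211 of 23481 symbols. Causes of these changes were not tested, apart from the fewer libraries or genes that a setting itself leaves.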

Other observations

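Counts of smaller gene groups at the middle doses at T4 stand beside 17.8% higher and 29.1% lower among all tested genes. Among 19 tested factors of translation initiation and elongation 4 rose and 5 fell, and of these Tpt1 among the rises and Eif2s2, Eif3e and Gnb2l1 among the falls were also called without any 1 library (edgeR quasi-likelihood). Eif2s2, which encodes the beta subunit of eIF2, stood at −2.38 and the ribosomal scaffold gene Gnb2l1 at −2.99 on the log2 scale with the treated libraries as 1 group. Among 9 tested genes of glycolysis and hypoxia 3 rose and 2 fell, and the rises numbered 0 without the first 156 nM library and 1 without any of the other treated libraries. Among 5 tested heat shock genes 1 rose and 2 fell, and Hsp90ab1, a cytosolic chaperone among the falls, had a log2 fold change of −0.91 (adjusted p = 0.003). The rise, in Hspa8, was lost without any 1 of the treated libraries. Among 5 tested NRF2 targets 2 fell, Ftl1 and the peroxide-reducing Prdx1, the latter by 1.75 on the log2 scale with the treated libraries as 1 group. Among 9 tested immediate early genes 2 rose and none fell, with 4 rises without the first 39 nM library and 1 without the second, and neither rise was called in every fit that left out 1 library. Among 5 tested genes of the TGF-beta response 1 rose and 1 fell. Both tested neutrophil markers missed the threshold, although S100a8 was called lower with median-of-ratios scaling (−3.07, adjusted p = 0.0423), by DESeq2 (−2.35, adjusted p = 0.0407), with no filter and without structural RNAs. The whole list had summed levels of 159.7 to 628 CPM in the controls and 188 to 474 CPM in the treated libraries.

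AW112010, counted here among the noncoding RNAs, had 660 counts in the controls, 5 at 39 nM and 2 at 156 nM, with a log2 fold change of −3.20 (adjusted p = 6.9e-07) when the treated libraries form 1 group. Irf8, a transcription factor of macrophage development, had 342, 3 and 1 counts, and stood at −3.02 in the same fit.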
